A study of Zea mays with 18 samples.

Results

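In maize roots, 24 of 40690 counted genes were higher under iron deficiency, were still at least 2 times the iron-sufficient level 24 hours after iron was given back, and were under 1.4 times the sufficient level in deficient shoots. They were chosen by their measured levels. With P, M and R for the mean CPM (counts scaled by TMM and library size, on the usual CPM scale) plus 0.1 in iron-sufficient, iron-deficient and resupplied roots, a gene needed M/P of at least 2, R/P of at least 2, R/M under 1.5 and M of at least 5. Every deficient and every resupplied root library had to lie above every sufficient root library. The mean of the 9 root libraries had to reach the mean of the 9 shoot libraries, and M/P in shoots had to be under 1.4. The root levels below, their ratios and the preference for roots therefore describe what was selected on, and no test of them is read as a result. Selection put no lower limit on R/M beyond the one that R/P sets and no limit on the spread within a group. Resupplied shoots entered it only through the mean of the 9 shoot libraries, which bounds their level from above.

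The 18 RNA-seq libraries came from the maize inbred line W22, 3 biological replicates in each of 6 groups. All plants were first grown hydroponically for 12 days. Sufficient plants (+Fe) and deficient plants (-Fe) then spent 3 days with or without iron and a further 24 hours in fresh solution of the same kind. Resupplied plants had the same 3 days without iron, followed by 24 hours in solution with 0.1 mM FeSO4-EDTA. Roots and shoots were frozen separately, so each treatment has 3 root and 3 shoot libraries. All groups share the W22 genotype and no transgene or mutant is labelled among them. How many plants make up a replicate is not labelled, nor is any sharing of plants between the roots and shoots of a number, so a p-value measures the spread between these libraries.

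Grasses take up iron by secreting phytosiderophores of the mugineic acid family, which bind ferric iron in the soil, and by importing the complex through transporters of the yellow stripe family. The genes for making, exporting and importing these compounds are known to be switched on in iron-starved roots and switched off again once iron returns. Strigolactones, the hormones in the title of the study, are made in roots, act in shoot branching and are exuded into the soil. The deposited files carry W22 identifiers (Zm00004b followed by 6 digits) and do not pair them with gene names, and 0 of the 40690 identifiers matched the 49888 entries of the B73 RefSeq gene table at hand. Known iron and strigolactone genes could therefore not be looked up, and the 24 genes are described by their levels alone, with no function or sequence given.

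Total estimated counts ran from 63058129 to 78431980 in the root libraries and from 69390438 to 84318039 in the shoot libraries. The 100 most abundant genes with at least 8 times more CPM in shoots than in roots, a choice that fixes the difference between the organs, took 15.05 to 23.09% of CPM in shoot libraries and 0.143 to 0.2955% in root libraries, the highest root share being that of +Fe library 3 and no single library standing between the organs. CPM is not corrected for gene length, so levels are compared between libraries for a gene, not between genes. In whole roots, a higher level from more cells of an expressing type and from more RNA per cell cannot be told apart.

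Under the same conditions without the 3 that concern resupply, 150 root genes were raised by deficiency. The 24 genes are 16% of these. Another 114 genes (76%) were below 2 times the sufficient level after 24 hours, 11 (7.33%) were at 1.5 times the deficient level or higher, and 1 (0.667%) was at least doubled with overlapping libraries. R/M among the 114 ran from 0.028 to 0.941 (median 0.475), so some of them had hardly come down from the deficient level. The median gene among the 24 stood at 5.46 CPM in sufficient, 22.3 CPM in deficient and 13 CPM in resupplied roots, where the median of the 114 went from 12.3 through 31.2 to 16 CPM and that of the 11 from 2.98 through 14.4 to 32.7 CPM. A shoot mean under 1 CPM was found for 14 of the 24 genes (58.3%), 42 of the 114 (36.8%) and 7 of the 11 (63.6%). These shares are descriptions of parts divided by their resupply level, and their differences were not tested.

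**Figure D1:**
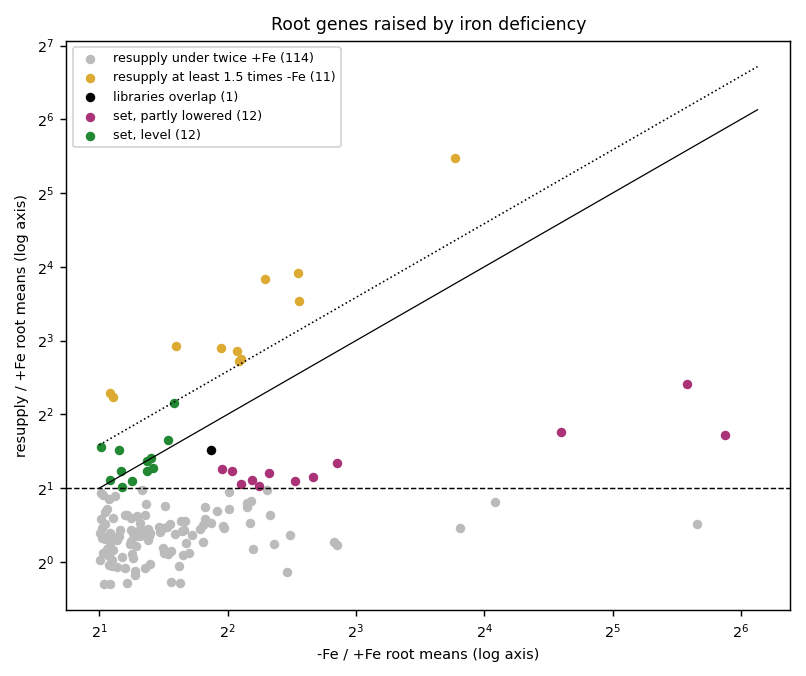
Ratio of resupplied to sufficient root means (vertical) against ratio of deficient to sufficient root means (horizontal), both on log axes, for the 150 root genes raised by deficiency; each point is a gene. The dashed line marks a resupplied level of 2 times the sufficient one, the solid line equal resupplied and deficient levels, and the dotted line a resupplied level of 1.5 times the deficient one. The 24 genes lie between the dashed and the dotted line, 12 of them to the right of the solid line and 12 around it.

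The place of the limits decides how many genes are counted. Dropping the condition on R/P alone would add 43 genes, the nearest of them at 1.97 where the lowest member is at 2.02. Dropping the condition on R/M would add 11 (nearest 1.56, highest member 1.49), the one on M 12 (3.49 against 5.04 CPM), and the one on shoots 8 (1.44 against 1.37). The remaining single conditions would add 6 for M/P (1.99 against 2.02), 3 for the preference for roots (ratio 0.764 against 1.01), 1 for separation of the resupplied libraries and 0 for separation of the deficient libraries. On R/P, the condition that removes most genes, the 24 genes lie above a limit in an unbroken spread of resupplied levels, with no gap around it.

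Within the limits the genes differed widely. Mean root levels of single genes spanned 0.196 to 50.7 CPM in sufficient, 4.94 to 245 CPM in deficient and 1.48 to 108 CPM in resupplied roots. The deficient level was 2.02 to 58.9 times the sufficient one (median 3.44). The resupplied level was 2.02 to 5.34 times the sufficient one (median 2.38), under 2.5 times for 14 genes and over 3 times for 5. Most of the 24 genes thus sit close above the limit on R/P that chose them, and 15 of them had every resupplied library at 1.5 times every sufficient library or more. In 4, chosen after their values were seen, every resupplied library was at least 2 times every sufficient one: Zm00004b014681, Zm00004b015803, Zm00004b001389 and Zm00004b001798.

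The share of the deficiency rise that was still present 24 hours after resupply, with the sufficient mean as 0 and the deficient mean as 100%, had a median of 64.4% and ran from 3.96 to 191%. Ordered by R/M, the genes parted at the widest gap between neighbours on the linear scale, from 0.615 to 0.891, into 12 that had come partly down and 12 that stood at about the deficient level. On a log scale the widest gap lies elsewhere, from 0.139 to 0.348, and would set apart the 3 lowest genes. The split was computed on the log2 scale with the outermost gaps at each end left out, that one among them. The split was made after the values were seen and is used for description only. In the 12 partly lowered genes R/M was 0.0559 to 0.615, the share kept was 3.96 to 48.2% (median 26.2%), and every resupplied library lay below every deficient library in 12 of 12. In the 12 level genes R/M was 0.891 to 1.49, the share kept was 80.5 to 191% (median 102%), and the resupplied and deficient libraries overlapped in every gene, with 7 means above and 5 below the deficient mean.

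The partly lowered genes were those with the larger deficiency ratios. Their M/P was 3.89 to 58.9 (median 5.38), against 2.02 to 2.99 (median 2.49) for the level genes, so the ranges did not overlap. R/P was alike, at a median of 2.33 (2.03 to 5.34) and 2.5 (2.02 to 4.45). M/P is R/P divided by R/M, so with R/P held near its lower limit a low R/M and a high M/P are the same statement, not separate findings. Median levels of the partly lowered genes were 1.39, 22.3 and 4.79 CPM in sufficient, deficient and resupplied roots, and those of the level genes were 11.6, 32.4 and 39.4 CPM. The shoot mean was under 0.1 CPM for 7 partly lowered and 3 level genes.

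**Figure D2:**
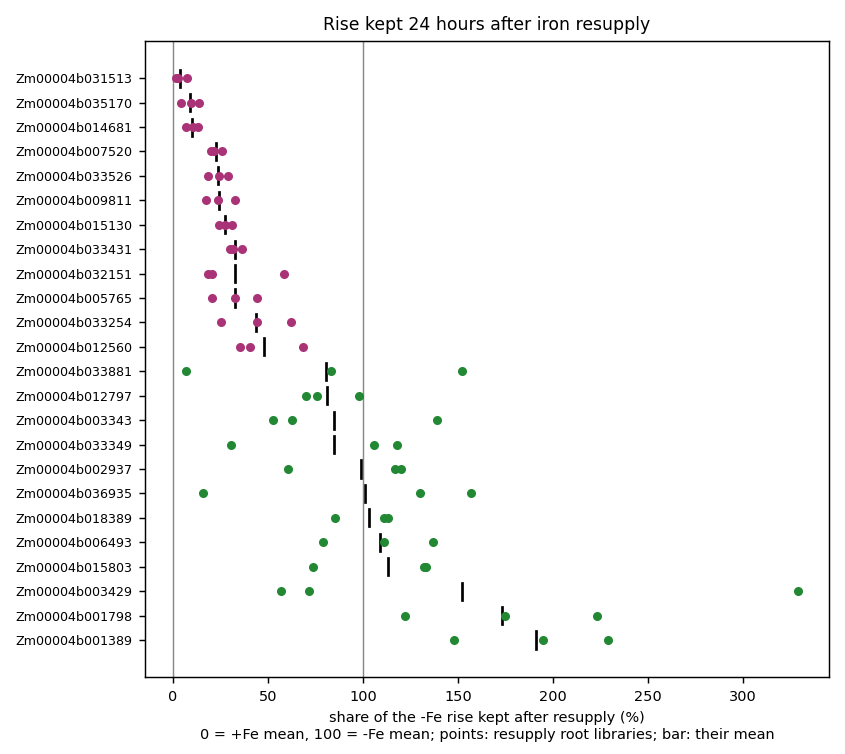
Share of the deficiency rise still present in roots 24 hours after iron resupply (horizontal, %, with the +Fe mean at 0 and the -Fe mean at 100) for each of the 24 genes (vertical, ordered by the mean share, lowest at the top). Points are the 3 resupplied root libraries and bars their mean. The means of the 12 upper genes (purple) are 3.96 to 48.2%, with single libraries from 1.67 to 68.6%, and those of the 12 lower genes (green) are 80.5 to 191%, with single libraries from 6.96 to 329%.

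Among the partly lowered genes, Zm00004b031513 had the lowest R/M of the 24. Its CPM in the 3 sufficient root libraries was 0.956, 0.824 and 1.9, in deficient roots 97.1, 91.5 and 45.1, and in resupplied roots 3.18, 7.1 and 2.5. The groups do not overlap, the deficient libraries are far above the others, and the resupplied ones are only just above the sufficient ones, the lowest at 1.32 times the highest sufficient library. The means ± SD (n = 3 each) were 1.23 ± 0.584, 77.9 ± 28.5 and 4.26 ± 2.48 CPM, which leaves 3.96% of the rise. The edgeR log2 fold change was -4.16 ± 0.45 (SE) from deficient to resupplied roots and 1.81 ± 0.45 from sufficient to resupplied roots. This gene is a member because its ratio to a very low sufficient level is still high, although nearly all of its rise was gone.

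Zm00004b035170 had the second lowest R/M and the highest R/P of the 24 at 5.34. Its CPM was 0.124, 0 and 0.464 in sufficient, 15.6, 14.9 and 11.7 in deficient and 0.789, 2.1 and 1.56 in resupplied roots. It is nearly silent in sufficient roots, so the high ratio rests on a resupplied mean of 1.48 ± 0.658 CPM (SD, n = 3) and 9.24% of the rise. The log2 fold change was -3.22 ± 0.61 from deficient to resupplied roots and 2.93 ± 0.70 from sufficient to resupplied roots. Its only signal in shoots was 0.0261 CPM in -Fe library 1.

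Zm00004b014681, chosen after its values were seen, kept 10.2% of its rise. Its CPM was 1.58, 1.27 and 1.65 in sufficient, 36.4, 40.9 and 38.9 in deficient and 4.05, 6.47 and 5.41 in resupplied roots. The highest library was 1.3 times the lowest in sufficient, 1.13 times in deficient and 1.6 times in resupplied roots. The 3 groups are well apart, and the lowest resupplied library was 2.45 times the highest sufficient one. In edgeR it was at -2.84 ± 0.17 (log2 fold change ± SE) from deficient to resupplied roots and 1.83 ± 0.18 from sufficient to resupplied roots. No count was found in the 9 shoot libraries.

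Zm00004b007520 had one of the highest resupplied levels, behind Zm00004b012797. Its CPM was 37.3, 37.8 and 40.3 in sufficient, 294, 246 and 195 in deficient and 92.3, 79.6 and 83.7 in resupplied roots. The resupplied libraries are close to each other (85.2 ± 6.48 CPM, SD, n = 3) and lie clear of both other groups, at 22.7% of the rise. On the log2 scale it changed by -1.49 ± 0.13 from deficient to resupplied roots and 1.15 ± 0.13 from sufficient to resupplied roots.

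Zm00004b012560 closes the partly lowered genes with 48.2% of its rise kept. Its CPM was 22, 28.5 and 32.9 in sufficient, 116, 116 and 93.1 in deficient and 60.7, 83.2 and 56.2 in resupplied roots. The 3 groups do not overlap, and the log2 fold change from deficient to resupplied roots was -0.67 ± 0.17. The other 7 partly lowered genes kept 23.9 to 44% of their rise, with resupplied means of 1.77 to 27.1 CPM.

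**Figure D3:**
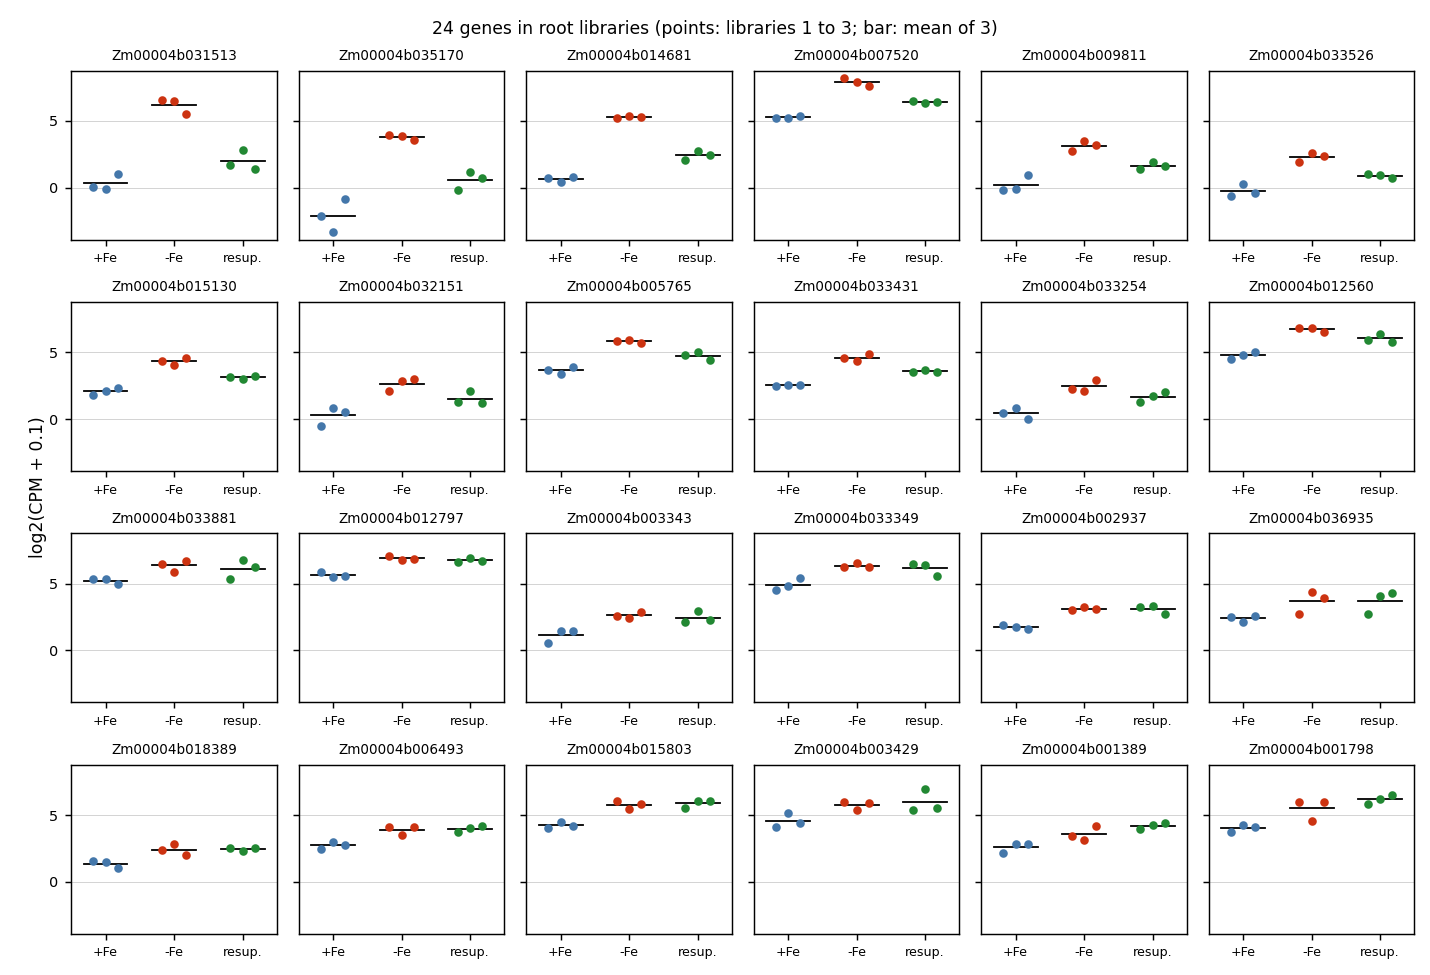
log2(CPM + 0.1) of the 24 genes in root libraries, 1 panel per gene in the order of their ratio of resupplied to deficient means; the 3 points per group are libraries 1 to 3 and the bar is the mean of the 3 log2 values. In the upper 12 panels all resupplied points lie between the sufficient and the deficient points, and in the lower 12 panels they overlap the deficient points.

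Among the level genes, Zm00004b012797 had the highest resupplied level. Its CPM was 58.9, 45.6 and 47.6 in sufficient, 136, 110 and 117 in deficient and 100, 120 and 104 in resupplied roots. The resupplied libraries overlap the deficient ones and lie well above the sufficient ones, at 108 ± 10.3 CPM (SD, n = 3). The log2 fold change from deficient to resupplied roots was -0.14 ± 0.12, and 81.4% of the rise was kept.

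At the upper end, Zm00004b001798 had the highest R/M at 1.49 and the second highest R/P at 4.45. Its CPM was 13, 19.3 and 17.3 in sufficient, 63.4, 23.6 and 62 in deficient and 57.1, 74.3 and 90.4 in resupplied roots. Deficient library 2 is low, only 1.22 times the highest sufficient library, and the lowest resupplied library was 2.95 times that library, so this gene is more cleanly separated after resupply than under deficiency. The log2 fold change was 0.60 ± 0.32 from deficient to resupplied roots and 2.17 ± 0.33 from sufficient to resupplied roots.

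Zm00004b001389 followed with an R/M of 1.46. Its CPM was 4.47, 6.97 and 7.09 in sufficient, 10.6, 8.57 and 18.4 in deficient and 15.6, 18.6 and 20.8 in resupplied roots. The lowest deficient library was 1.21 times the highest sufficient one and the lowest resupplied library 2.2 times, again the wider distance after resupply. From deficient to resupplied roots the log2 fold change was 0.57 ± 0.27. Without -Fe library 3, its highest deficient library, it became 0.97.

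In 5 of the 24 genes the resupplied root libraries spanned a range of 2-fold or more. Apart from Zm00004b031513 and Zm00004b035170 these were Zm00004b036935, Zm00004b033881 and Zm00004b003429, the last pair chosen after their values were seen. Zm00004b033881 had 40.4, 40.8 and 32.1 CPM in sufficient, 90.8, 60.3 and 106 CPM in deficient and 41.1, 110 and 77.6 CPM in resupplied roots. Resupplied library 1 is at the sufficient level (1.01 times the highest sufficient library, 6.96% of the rise) and library 2 above every deficient library (152%). Library 3 kept 83.1%, so the mean share of 80.5% describes that library only.

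Zm00004b003429 had 17.5, 35.8 and 21.1 CPM in sufficient, 63.4, 41.2 and 61.6 CPM in deficient and 42.3, 125 and 46.7 CPM in resupplied roots. Its share kept of 152% rests on resupplied library 2 alone, at 329%, where the other 2 libraries kept 57.2 and 71.7%. Zm00004b036935 had 5.7, 4.38 and 5.84 CPM in sufficient, 6.57, 20.7 and 15.4 CPM in deficient and 6.7, 16.9 and 19.3 CPM in resupplied roots. Library 1 of both the deficient and the resupplied roots is barely above the sufficient libraries, at 1.12 and 1.15 times the highest of them. Over the 24 genes, 2 had a lowest deficient library under 1.2 times the highest sufficient one, Zm00004b036935 and Zm00004b003429. For the lowest resupplied library the number was 4, these 2 with Zm00004b033881 and Zm00004b033349.

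Single libraries leaned the same way in many of the genes. Resupplied root library 1 was the lowest of its group in 14 of the 24 genes and library 2 the highest in 13. In sufficient roots, library 1 was the lowest in 14 genes and library 3 the highest in 13, while in deficient roots the highest value fell in libraries 1, 2 and 3 for 9, 8 and 7 genes. In the level genes alone, resupplied library 1 was the lowest in 9 of 12 and deficient library 2 in 8 of 12. In the partly lowered genes, sufficient library 3 was the highest in 9 of 12 and resupplied library 2 in 8 of 12. Genes of a library are not independent, and whether growth of the plants or handling of the libraries moves with this order was not tested. The order was counted in the 24 genes only, so it cannot be told from an order shared by all genes.

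**Figure D4:**
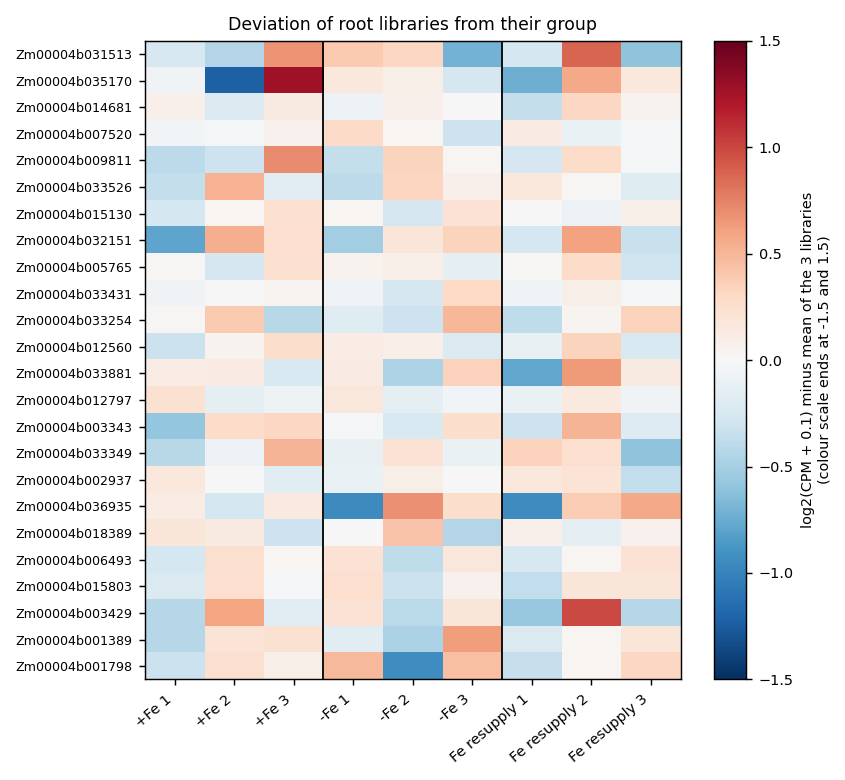
Deviation of each root library from the mean of its group of 3 on the log2(CPM + 0.1) scale (colour, red higher and blue lower, scale ending at -1.5 and 1.5) for the 24 genes (rows, in the order of their ratio of resupplied to deficient means) and the 9 root libraries (columns). Resupplied library 1 is lowest of its group in 14 rows and resupplied library 2 highest in 13; strong colours are seen for Zm00004b035170 in sufficient roots, Zm00004b001798 in deficient roots, Zm00004b036935 in deficient and resupplied roots and Zm00004b003429 in resupplied roots.

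A quasi-likelihood F-test in edgeR over the 26577 genes tested in roots, with Benjamini-Hochberg adjusted p under 0.05, is given here as a description, since the genes were chosen by these contrasts. It called 20 of the 24 genes higher in deficient than in sufficient roots, where 2.08% of all tested genes were called. The 4 that were not are level genes, Zm00004b033881, Zm00004b036935, Zm00004b003429 and Zm00004b001389. It called 12 of the 24 higher in resupplied than in sufficient roots (0.64% of all genes), 6 of the partly lowered and 6 of the level genes. Without sufficient library 1 this number was 6, where the calls over all genes were 54 of 26978, against 170 of 26577 with every library. The other 12 met the rule on their means and the order of their libraries and did not pass this test. Both contrasts use the same 3 sufficient libraries, so the counts are not independent of each other.

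Between resupplied and deficient roots, which selection bounded on the upper side, 9 of the 24 genes were called lower (1.74% of all genes), all of them partly lowered, with log2 fold changes over those 12 genes of -4.16 to -0.67 and a median of -1.32. The 3 partly lowered genes that were not called were Zm00004b032151 (-1.12 ± 0.39), Zm00004b033254 (-0.79 ± 0.31) and Zm00004b012560 (-0.67 ± 0.17). None was called higher, where 1.79% of all genes were: the edgeR count was 0, with 0 at an unadjusted p under 0.05 and 0 by DESeq2. Without -Fe library 3 it was 1, Zm00004b001389, where 901 of 26952 tested genes were called higher. In the 12 level genes the log2 fold changes were -0.14 to 0.60 with standard errors of 0.12 to 0.41 and adjusted p-values of 0.29 to 0.98 in edgeR, which does not show that their levels were equal. Every resupplied library lay below every deficient library in 12 of the 24 genes (13.2% of all tested genes) and above in 0 (10.1%). The median log2 fold change of the 24 genes was -0.40, against -0.0013 over all genes tested.

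In the authors' deposited table, from their own DESeq2 comparison, 23 of the 24 genes were higher in deficient than in sufficient roots at an adjusted p under 0.05 (4.14% of the genes in that table), and 19 in resupplied than in sufficient roots (1.97%). Between resupplied and deficient roots the authors' deposited table has 11 of the 24 lower (4.71%) and 0 higher (5.33%). The gene missing from the first count is Zm00004b035170, for which the authors' deposited table gives a log2 fold change of 0.29 with an adjusted p of 0.18, where the deposited counts gave 6.16 ± 0.74 in edgeR. Smaller values were general in the authors' deposited table, with 1.81 against 5.97 for Zm00004b031513 and medians over the 24 genes of 1.23 against 1.75 between deficient and sufficient roots and 0.71 against 1.29 between resupplied and sufficient roots. Whether the authors shrank their fold changes is not given in the sources used here, so their sizes are not comparable with those from edgeR.

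In shoots the 24 genes were mostly low, which selection favoured by asking for a root mean at or above the shoot mean. No count was found in the 9 shoot libraries for 4 genes, Zm00004b014681, Zm00004b009811, Zm00004b033526 and Zm00004b018389, and a count of 0 allows up to 3 counts, or 0.038 to 0.0527 CPM in a shoot library, for counting error only. A further 10 genes had a shoot mean under 1 CPM, 9 had 1 to 10 CPM and 1 had more. In sufficient plants, 5 of the 24 genes had a lower mean in roots than in shoots, with root to shoot ratios of 0.312 for Zm00004b031513, 0.451 for Zm00004b036935, 0.457 for Zm00004b012560, 0.577 for Zm00004b002937 and 0.794 for Zm00004b003343. Under deficiency this was so for 0 of the 24, and after resupply for 2. Those 2 were Zm00004b031513 (4.26 CPM in roots and 4.6 CPM in shoots) and Zm00004b012560 (66.7 and 80.1 CPM), so their preference for roots over all 9 libraries rests on the deficient roots. In Zm00004b002937 and Zm00004b003343 it rests on the deficient and resupplied roots, where selection required high levels. In Zm00004b036935 it rests also on low resupplied shoots, at a mean of 3.45 CPM. Its sufficient and deficient shoots had means of 11.8 and 13.2 CPM.

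Zm00004b012560 had the smallest ratio of root to shoot mean, at 1.01. Its shoot CPM was 58.8, 76 and 48 in sufficient, 62.2, 64.5 and 52.5 in deficient and 93.4, 83.6 and 63.4 in resupplied plants. Its shoot CPM is of the size of its resupplied root CPM, and its shoot level differs little between sufficient and deficient plants. The resupplied libraries overlap both other groups, with a log2 fold change of 0.42 ± 0.17 against deficient shoots (adjusted p = 0.15, edgeR) and 0.40 ± 0.17 against sufficient shoots (adjusted p = 0.16, edgeR). With a replicate block it was called higher in both contrasts (adjusted p = 0.03 and 0.034, edgeR). The authors' deposited table gives 0.31 on the log2 scale, possibly shrunken, with an adjusted p of 0.011 against deficient shoots and 0.056 against sufficient shoots.

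The contrasts of resupplied shoots were not set directly by the rule, which used those libraries only in the mean of all 9. That mean could not exceed the root mean, which favours genes that are low in resupplied shoots. Of the 24 genes, 15 passed the filter on low counts in shoots and were tested among 26318 genes. Between resupplied and deficient shoots, 2 of the 15 fell (3.72% of all tested genes) and 0 were called higher (4.86%), with 2 higher at an unadjusted p under 0.05 in edgeR and 1 called by DESeq2 (Zm00004b001798). Between resupplied and sufficient shoots, 2 of the 15 fell (5.47%) and 0 were called higher (4.05%), with 1 higher at an unadjusted p under 0.05 in edgeR and 0 called by DESeq2. Both comparisons use the same resupplied libraries. The pair of genes called lower was Zm00004b036935 and Zm00004b003343 in each, both of them level genes in roots.

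Zm00004b036935 had 13.8, 6.19 and 15.3 CPM in sufficient shoots, 15.8, 12.6 and 11.2 CPM in deficient shoots and 1.8, 3.35 and 5.21 CPM in resupplied shoots. Every resupplied shoot library is below every other shoot library. It fell by 1.93 on the log2 scale (SE 0.37, adjusted p = 0.0066, edgeR) against deficient shoots and by 1.77 (SE 0.37, adjusted p = 0.012, edgeR) against sufficient shoots, and it was called lower under all 12 other settings tried for each contrast. In the roots of the same treatment its mean was 14.3 ± 6.68 CPM, next to 14.2 ± 7.13 CPM in deficient roots (SD, n = 3 each), a difference far under the spread between replicates. Its mean over the 9 root libraries, 11.3 CPM, was below its means in sufficient and deficient shoots, 11.8 and 13.2 CPM. It could therefore meet the rule only with lower resupplied shoots (mean 3.45 CPM). Selection thus favoured its fall in shoots, and the p-values of that fall are a description.

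Zm00004b003343 had 2.98, 2.08 and 3.4 CPM in sufficient shoots, 3.29, 2.98 and 2.17 CPM in deficient shoots and 1.6, 1.06 and 0.924 CPM in resupplied shoots. Here too every resupplied shoot library is below every other shoot library. It fell by 1.23 on the log2 scale (SE 0.30, adjusted p = 0.025, edgeR) against deficient shoots and by 1.24 (SE 0.30, adjusted p = 0.026, edgeR) against sufficient shoots. Leaving out -Fe library 1 or 2 ended the first call, leaving out +Fe library 1 or 3 ended the second, and leaving out resupplied library 2 or 3 ended both, with adjusted p-values of 0.073 to 0.1 in edgeR and log2 fold changes of -1.19 to -1.08. Its root CPM was 1.4, 2.62 and 2.69 in sufficient, 5.95, 5.2 and 7.32 in deficient and 4.31, 7.69 and 4.71 in resupplied plants, the last overlapping the deficient values. Whether the response to resupply differs between organs was not tested for either gene, because the root values chose them.

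**Figure D5:**
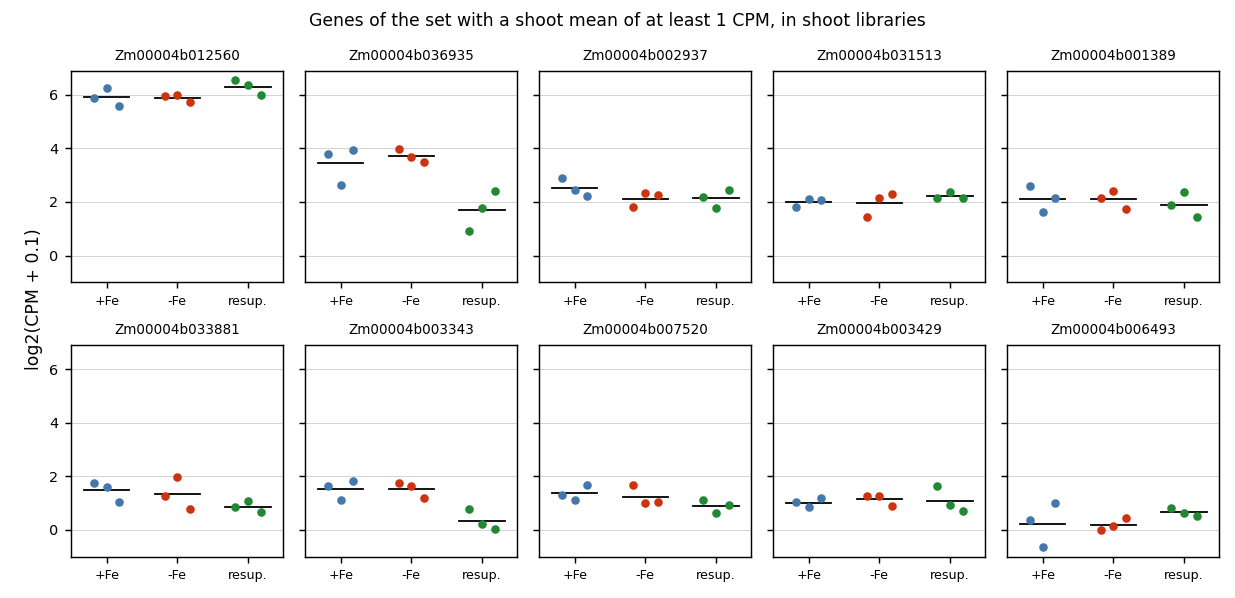
log2(CPM + 0.1) in shoot libraries for the 10 genes of the set with a shoot mean of at least 1 CPM; the 3 points per group are libraries 1 to 3 and the bar is the mean of the 3 log2 values. In Zm00004b036935 and Zm00004b003343 all 3 resupplied points lie below all other points, and in the other 8 genes the groups lie close together or overlap.

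Of the remaining 13 genes tested in shoots, none passed the test in either contrast of resupplied shoots. Counting libraries instead, every resupplied shoot library lay below every deficient one in 2 of the 15 genes (13.5% of all tested genes) and above in 2 (14.4%), and below every sufficient one in 3 (14.7%) and above in 2 (13.2%). Each of these shares is near that of all genes, so they are not a result about the set. The 2 above the deficient shoots were Zm00004b006493 and Zm00004b001798, and Zm00004b001798 and Zm00004b031513 were above the sufficient shoots.

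Zm00004b001798, which had the highest R/M in roots, had 0.597, 0.955 and 0.747 CPM in sufficient, 0.914, 0.409 and 0.304 CPM in deficient and 1.01, 1.84 and 1.8 CPM in resupplied shoots. Every resupplied shoot library is above every other, at low levels throughout. The log2 fold change was 1.51 ± 0.50 (SE, adjusted p = 0.09, edgeR) against deficient shoots and 1.02 ± 0.49 (adjusted p = 0.23, edgeR) against sufficient shoots, so the difference did not pass the test. The authors' deposited table gives a log2 fold change of 0.56, possibly shrunken, with an adjusted p of 0.035 against deficient shoots.

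Between deficient and sufficient shoots, which selection bounded on the upper side, 0 of the 15 tested genes were called higher (1.26% of all tested genes) and 0 lower (4.44%), with 0 in either direction at an unadjusted p under 0.05 in edgeR and 0 by DESeq2. The direction of calls over all genes depends on the scaling in shoots. Between deficient and sufficient shoots 331 genes were called higher and 1168 lower, but 3178 higher and 630 lower with total-count scaling. Between resupplied and deficient shoots these numbers were 1278 and 980 against 883 and 1571, and between resupplied and sufficient shoots 1065 and 1439 against 2426 and 952. Under both scalings the calls among the 15 genes were Zm00004b036935 and Zm00004b003343, lower in both contrasts of resupplied shoots, and 0 between deficient and sufficient shoots. The median log2 fold change of the 15 genes was -0.029, where all genes had 0.0086. In the other shoot contrasts the medians were 0.018 against deficient shoots (all genes 7e-04) and 0.13 against sufficient shoots (all genes 0.00013). With total-count scaling the medians of the 15 genes were 0.14 between deficient and sufficient shoots (all genes 0.18), -0.0555 against deficient shoots (all genes -0.0737) and 0.22 against sufficient shoots (all genes 0.10), so the sign turned in the first pair of contrasts.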

How the data were processed

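RNA-seq libraries of W22 maize roots and shoots were used, 18 in 6 groups of 3, grouped by their titles. The authors deposited estimated counts per gene for each library, all whole numbers, so rounding changed none. Tools listed in the submitters' processing notes, with no version, are HISAT2, StringTie, Trim Galore and DESeq2. No genome build is named there. The authors' deposited comparison tables give, per the file headers, p-values before and after adjustment, the Wald score behind them, the log2 fold change with its error, and the base mean, a signal level averaged over libraries. Their values are only set beside those of the counts.

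CPM were TMM-scaled over all 18 libraries in edgeR 4.0.16 (R 4.3.3). Tests were edgeR quasi-likelihood F-tests over the 9 libraries of an organ, with filterByExpr, Benjamini-Hochberg adjustment and an adjusted p under 0.05. The code was tested on simulated data. The ± values are standard errors of log2 fold changes or SDs of CPM. Alternatives were RLE factors, total-count scaling, no filter, a robust fit, DESeq2 1.42.0, a replicate block, a pseudocount of 1 and leaving out each library. With 3 replicates, the spread between libraries limits the precision.

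The 24 genes, the split into 12 and 12 and the tests were chosen with earlier results of these data known. Genes are named as the 2 highest resupplied levels, the 2 largest and smallest R/M, the 2 largest R/P, the 2 smallest root to shoot ratios and the calls in resupplied shoots. Other named genes were chosen after their values were seen. Lists of iron, strigolactone and tissue marker genes were not used, as the identifiers carry no names.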

Additional observations from a re-analysis of the deposited data

How the results depend on the processing

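The number of genes meeting the rule was 24 with RLE factors and with a filter before scaling, 19 with total-count scaling, 18 with a pseudocount of 1 (15 of them shared) and, chosen after seeing the data, 23 with the minimum of 5 CPM taken without the added 0.1. Leaving out 1 library gave 18 (without -Fe root library 3) to 34 (without +Fe root library 2). Of the 24 genes, 11 met the rule whichever of the 18 libraries was left out, 2 failed it once and 11 more often, Zm00004b012560 most often with 7 times. Calls among the 24 kept their direction in all settings run. Leaving out 1 library, the count higher in resupplied than in sufficient roots was 6 to 13, the count higher than in deficient roots was 0 to 1, and the counts in resupplied shoots were 0 to 1 higher and 1 to 2 lower in each contrast, where Zm00004b003343 was the call that was lost. Over all genes the same fits called 54 to 172 and 145 to 901 genes higher in those root contrasts. Against deficient shoots they called 726 to 925 higher and 508 to 720 lower. Against sufficient shoots they called 365 to 1490 higher and 737 to 1542 lower. DESeq2 gave 22, 18 and 10 calls in the 3 root contrasts, where edgeR gave 20, 12 and 9, and 1 gene higher in resupplied than in deficient shoots (Zm00004b001798). In that shoot contrast DESeq2 called 1741 of 24569 genes higher. Replicate numbers showed at most weak pairing within an organ: deviations of same-numbered libraries correlated at -0.112 to 0.115. The highest value for differently numbered libraries was 0.0305 to 0.104 by contrast, and some same-numbered values exceeded it. Pairing between the roots and shoots of a number is not covered by these values. A replicate block gave 17, 12 and 9 root calls and 1 gene higher in resupplied shoots in each contrast, Zm00004b012560 (log2 fold change 0.42 against deficient and 0.40 against sufficient shoots). Over all genes the block gave 410, 115 and 347 calls in these root contrasts, against 554, 170 and 463 without it. In resupplied shoots the block called 1332 genes higher against deficient and 1090 against sufficient shoots. Total-count scaling moved the median of all genes by 0.18 between deficient and sufficient shoots and by 0.10 between resupplied and sufficient shoots (log2). Under it Zm00004b036935 and Zm00004b003343 were still called lower in both contrasts. Over all genes, DESeq2 called 988 genes higher in deficient than in sufficient roots against 554, 430 in resupplied roots against 170, and 1196 higher and 1035 lower in resupplied than in deficient roots against 475 and 463. The cause of these differences was not tested. The filter on low counts limits the shoot contrasts to 15 of the 24 genes, and the others had shoot means of 0 to 0.0693 CPM.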

Other observations

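The number part of the identifiers of 5 of the 24 genes lies between 33254 and 33881, within a window of 1000 numbers, where 7 of the 150 root genes raised by deficiency and 697 of the 26577 genes tested in roots (2.62%) have theirs. None of the 24 identifiers are consecutive (0 pairs). The window was chosen after the numbers were seen, so no test is given. Whether the numbering follows the order of genes along the genome is not given in the sources used here, and whether these 5 genes are neighbours was not tested.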
